A study of Mus musculus with 16 samples.

Results

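The 42 genes described here encode the machinery that brings nuclear-encoded proteins into mitochondria and folds, cuts or degrades them there. They were chosen by name, as the rows of the deposited count table whose identifiers carry 1 of 42 listed mouse symbols, and make up 42 of the 55471 gene identifiers in the table. All 42 symbols matched a single row, and 41 of these genes were among the 14331 genes with enough counts for testing. Skeletal muscle mRNA of 16 male mice was sequenced, each library from a separate mouse. Of these, 10 carry the label heterozygous (*Npr1*+/-) and 6 are wildtype littermates (*Npr1*+/+). *Npr1* encodes GCA, the receptor of atrial natriuretic peptide. The mutant allele was carried in the whole body on a C57BL/6J background, and mice of both labels received a high-fat diet (HFD) for 12 weeks, with an age of 12 weeks given for them. The mice were housed in 4 cages and weighed 36.5 to 54.0 g, and each cage held mice of both labels. The labels name no single muscle for the sequenced tissue.

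Between 15273472 and 59682677 fragments were counted per library, and every tested import gene other than *Timm8a1* had at least 107 counts in each library. Levels are given as CPM, counts per 1000000 counts of the library with TMM scaling. The 8 fast fibre markers of skeletal muscle summed to 102753 CPM or more in every library, whereas the 4 cardiac markers together had at most 7.33 CPM and *Myl7* was at 0 in every library. *Npr1* itself did not check the labels: it had 9.83 to 22.2 CPM (median 12.0) in 10 libraries labelled *Npr1*+/- against 10.4 to 13.4 CPM (median 12.4) in 6 labelled *Npr1*+/+. Every direction below is therefore between libraries as labelled. In bulk tissue, fewer cells of a type and less RNA per cell cannot be told apart.

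Most mitochondrial proteins are made in the cytosol and enter through the TOM complex, the common gate of the outer membrane. Proteins with a cleavable leader pass on through the TIM23 channel and are pulled in by an ATP-driven motor, carriers are led by small TIM chaperones to the TIM22 complex, and β-barrel proteins are placed in the outer membrane by the SAM complex. Within the matrix, peptidases remove the leader, the chaperonin folds the chain, and AAA+ proteases degrade what is damaged. Skeletal muscle, rich in mitochondria, depends on this supply.

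The chaperonin genes *Hspd1* (HSP60, the folding barrel) and *Hspe1* (HSP10, its lid) show how closely 2 genes of one machine can be joined in the genome. They lie head to head on chromosome 1 of GRCm38, *Hspd1* on the minus strand from 55077835 to 55088243 and *Hspe1* on the plus strand from 55088132 to 55091307, so that an upstream exon of *Hspd1* overlaps *Hspe1* by 112 bases. The main first exons are 107 bases apart. This gap, part of that upstream exon, holds the following stretch, read on the plus strand, with every base that belongs to a match of a 3-unit heat shock element in capitals. Here 2 overlapping matches, 1 in each orientation, cover 18 bases. The second stretch lies upstream of *Timm9*, a small TIM chaperone gene whose body covers chromosome 12 from 71123173 to 71136673 on the minus strand, and is read on that strand, with 1 match of 13 bases. Both are shown because, of the 38 import genes with a promoter in the RefSeq table used here (GRCm38.p6), *Hspd1*, *Hspe1* and *Timm9* held this motif.
Hspd1 and Hspe1, chr1:55088053-55088082, plus strand: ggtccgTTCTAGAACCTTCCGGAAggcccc
Timm9, chr12:71136845-71136897, minus strand: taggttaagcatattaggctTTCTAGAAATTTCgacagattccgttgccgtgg

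The motif searched was GAANNTTC with a further TTC 2 bases before it, on either strand within 250 bases before the start, and it was chosen after these sequences were seen. It was present at 3 of 38 import genes (7.89%) and at 0.514% of all 27025 genes in the table, and the *Hspd1* and *Hspe1* windows share the same copy. The shorter GAANNTTC, which lies within it, was found at the same 3 genes and at 7.73% of all genes. CCGGAAGT, the core bound by the ETS factor GABP, was found before *Tomm70a*, *Timm29*, *Timm23*, *Pmpcb* and *Mtx2*, which is 13.2% of import genes against 3.23% of all genes. TCAAGGTCA, the site of ERR receptors, was found before *Timm8b*, and the consensus YY1 site before *Immp1l*, against 0.422% and 0.248% of all genes. The consensus NRF1 palindrome was found before 0 of the 38 import genes and before 0.877% of all genes. These matches are descriptions of the letters in these windows and not measured binding. *Tomm7*, *Timm21*, *Hspa9* and *Tomm40l* had no entry in the table.

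Levels per length differed widely between the import genes. On the scale of TMM-normalized CPM per kilobase of the gene model, *Timm8b*, which encodes a small TIM chaperone of the intermembrane space, was the highest with 282 ± 111 (SD, n = 16), and *Hspa9*, the mitochondrial HSP70 at the heart of the import motor, followed with 114 ± 17.7. The next in order were *Tomm7*, a small subunit that modulates TOM assembly (66.8 ± 21.6), and *Timm23*, the channel protein itself (64.1 ± 16.9). *Tomm7* and *Timm23* lay within each other's spread. At the low end, *Timm10b* had 2.34 ± 0.596 and *Timm8a1* 1.98 ± 0.751, again within each other's spread. Within the chaperonin pair, *Hspd1* (48.2 ± 10.6) and *Hspe1* (41.1 ± 11.8) also lay within each other's spread. Among the peptidases, *Immp1l*, a catalytic subunit of the inner membrane peptidase, was highest with 54.1 ± 18.5. *Clpp*, the proteolytic chamber of the matrix protease ClpXP, had 49.7 ± 12.3, against 24.1 ± 1.96 for its unfoldase *Clpx*.

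**Figure D1:**
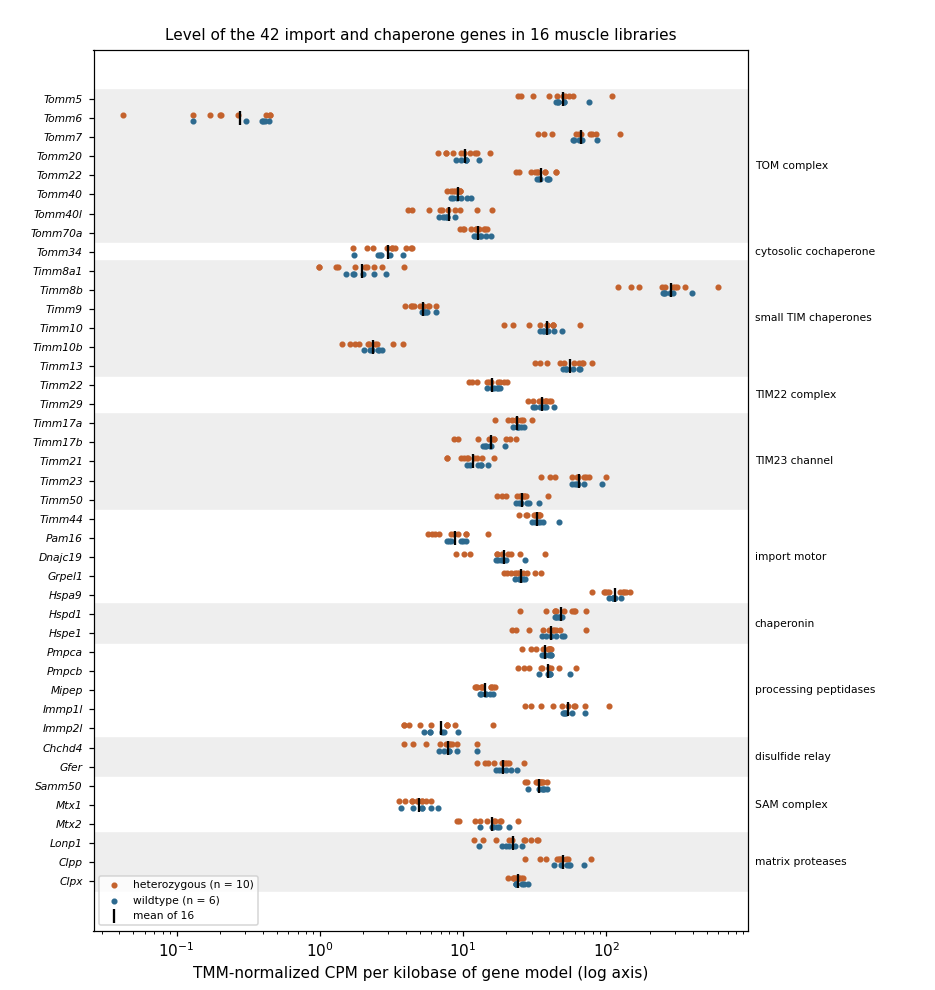
Level of each of the 42 import genes in the 16 libraries, as TMM-normalized CPM per kilobase of gene model on a log axis, grouped by role. Orange points are the 10 libraries labelled heterozygous, blue points the 6 labelled wildtype, and black bars the mean of 16, which runs from 0.277 (*Tomm6*) to 282 (*Timm8b*).

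Some of these levels are uncertain because reads can match more than one gene. *Tomm6*, which encodes a small TOM subunit, was the 1 gene that failed the low-count filter, with 0.000 to 0.512 CPM. Of its exon bases, 76.0% overlap *Gm21981* on the same strand, which itself had 25 counts over all libraries, and 81.2% of its 52-base windows recur in another gene, so its count cannot be read as its level. Windows of 52 bases, the read length, also recurred in other genes for 90.7% of *Timm23* (*Gm10273* the most), 88.6% of *Pam16* (*Gm9803*), 63.8% of *Tomm40l* (*Nr1i3*, on the opposite strand), 43.8% of *Hspd1*, 43.4% of *Hspe1* and 40.9% of *Timm8a1* (*Gm9797*). The values of these genes are given with that reserve.

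The first comparison asks whether import genes differ between mice labelled *Npr1*+/- and *Npr1*+/+, corrected for cage and body weight. None of them passed the test. Most estimates were slightly negative: 31 of 41 (75.6%) were below 0, against 51.6% of all genes tested, and the median log2 fold change was -0.05 against -0.01 for all genes. With edgeR's quasi-likelihood test, 0 of 41 import genes and 0 of 14331 genes (0%) had an adjusted p-value under 0.05. At an unadjusted p-value under 0.05 the counts were 0 import genes and 151 genes (1.05%), and DESeq2 called 6 genes and 0 import genes. The ranges of the 2 labels overlapped for every import gene tested, and lay apart for 1 gene of all tested (0.00698%). The 95% intervals of the log2 fold changes reached from -0.67 (*Hspe1*) to 0.87 (*Timm8a1*) at their widest. They use the 10 residual degrees of freedom alone, whereas the test adds prior ones, so they are wider than the test itself would give.

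Of the 5 import genes with the smallest unadjusted p-values, *Mtx1* and *Samm50* belong to the SAM complex and the others to the TOM complex, the TIM22 complex and the small TIM chaperones. *Mtx1*, a metaxin of the outer membrane SAM complex, had 12.8 to 21.4 CPM (median 17.3) in the 10 libraries labelled *Npr1*+/- and 13.3 to 24.01 CPM (median 18.5) in the 6 labelled *Npr1*+/+. The ranges overlapped, with the highest value in a library labelled *Npr1*+/+, and the estimate was -0.21 on the log2 scale (standard error 0.17, 95% interval -0.58 to 0.17, unadjusted p = 0.240 from edgeR). *Mtx1* also shares 30.1% of its exon bases with genes on the opposite strand.

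*Samm50*, the β-barrel core of the same SAM complex, had 176 to 253 CPM (median 226) against 186 to 253 CPM (median 235). The estimate was -0.16 (standard error 0.13, 95% interval -0.45 to 0.14). The third SAM gene, *Mtx2*, was at -0.06, so that all 3 SAM estimates were negative and none passed the test.

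*Tomm40*, the import pore of the TOM complex, had 35.1 to 43.2 CPM (median 40.7) with the *Npr1*+/- label against 37.3 to 50.9 CPM (median 42.3). Its fold change came to -0.15 (standard error 0.13). It was among the steadiest import genes, with a log2 SD of 0.10 over the 10 libraries labelled *Npr1*+/-, and the 2 highest values belonged to *Npr1*+/+ mice. Leaving out 1 library at a time gave -0.21 to -0.024, the latter without replicate 4 labelled *Npr1*+/+.

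*Timm29*, a metazoan subunit of the TIM22 carrier translocase, had 90.2 to 129 CPM (median 116) against 97.2 to 136 CPM (median 112), and its estimate was -0.12 (standard error 0.13). That estimate ran from -0.18 to -0.059 on leaving out 1 library. *Timm8a1*, the X-linked partner of *Timm13*, had 1.41 to 5.48 CPM (median 2.7) against 2.16 to 4.12 CPM (median 2.64). Its estimate of 0.23 (standard error 0.29) was the highest of the 41 and the least precise among the 5, with the libraries labelled *Npr1*+/- lying on both sides of the others. It was 0.098 without replicate 9 labelled *Npr1*+/-, and turned to -0.075 with the label alone, -0.26 with cage as the only covariate and -0.25 with the replicate number in place of cage.

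The most abundant gene of each role per length showed the same overlap. *Timm8b* had 62.5 to 312 CPM (median 142) with the *Npr1*+/- label and 129 to 205 CPM (median 138) with the *Npr1*+/+ label, and an estimate of 0.11 (standard error 0.31). *Tomm7* had 37.3 to 139 CPM (median 73.7) against 66.0 to 96.3 CPM (median 73.6), and *Timm23* 62.9 to 177 CPM (median 112) against 103 to 167 CPM (median 112), with estimates of 0.11 and 0.04. In each of these the *Npr1*+/- label held both the lowest and the highest value. The estimates of all 3 turned negative without replicate 9 labelled *Npr1*+/-, at -0.11 for *Timm8b*, -0.030 for *Tomm7* and -0.068 for *Timm23*. They were also negative with the label alone, with cage as the only covariate and with the replicate number in place of cage, where they reached -0.37, -0.20 and -0.32.

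*Hspa9* had 344 to 633 CPM (median 495) against 452 to 546 CPM (median 481), and *Immp1l* 25.8 to 99.99 CPM (median 49.3) against 47.6 to 67.9 CPM (median 49.7). *Gfer* had 27.8 to 59.8 CPM (median 42.2) against 37.6 to 53.0 CPM (median 43.0), and *Clpp* 33.0 to 95.3 CPM (median 57.3) against 52.8 to 85.1 CPM (median 65.8). The estimates of these 4 genes were -0.08, 0.09, -0.08 and -0.10 in the same order, and the *Npr1*+/- range enclosed the other range each time. Without replicate 9 labelled *Npr1*+/-, the *Hspa9* estimate was -0.00035 and that of *Immp1l* -0.093. With the label alone *Hspa9* turned to 0.024 and *Immp1l* to -0.057, and with cage as the only covariate they were 0.082 and -0.21.

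By role, the direction was the same throughout in some complexes and mixed in others. All 3 SAM genes, all 3 matrix protease genes (*Lonp1*, *Clpp*, *Clpx*), both TIM22 genes, both chaperonin genes and both genes of the disulfide relay (*Chchd4*, the MIA40 oxidoreductase, and *Gfer*, which reoxidizes it) had negative estimates. Several of these signs turned in other fits: *Lonp1* was 0.22 and *Hspd1* 0.10 with the label alone, 0.22 and 0.17 with cage as the only covariate and 0.31 and 0.15 with the replicate block, where *Timm29* was 0.04. Without replicate 4 labelled *Npr1*+/+, *Gfer* was 0.14, *Mtx1* 0.03 and *Clpp* 0.02. In the TOM complex 3 of 7 were negative, with a median of 0.02, and in the small TIM group 4 of 6, with a median of -0.05. In the TIM23 channel and the import motor 4 of 5 each were negative, with medians of -0.03 and -0.05. Among the processing peptidases the count was 3 of 5. Of the markers of other cell types, *Hbb-bt* and *Alas2* of the 5 erythrocyte genes (0.79 and 0.54) had an unadjusted p-value under 0.05 for the genotype label. So did *Cd79a* (-1.18), the 1 of 4 B cell genes with enough counts for testing. Its level was low and overlapped, at 0.047 to 0.97 CPM against 0.25 to 0.97 CPM. Of these markers 0 passed after adjustment, and their part in the import gene estimates was not tested.

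**Figure D2:**
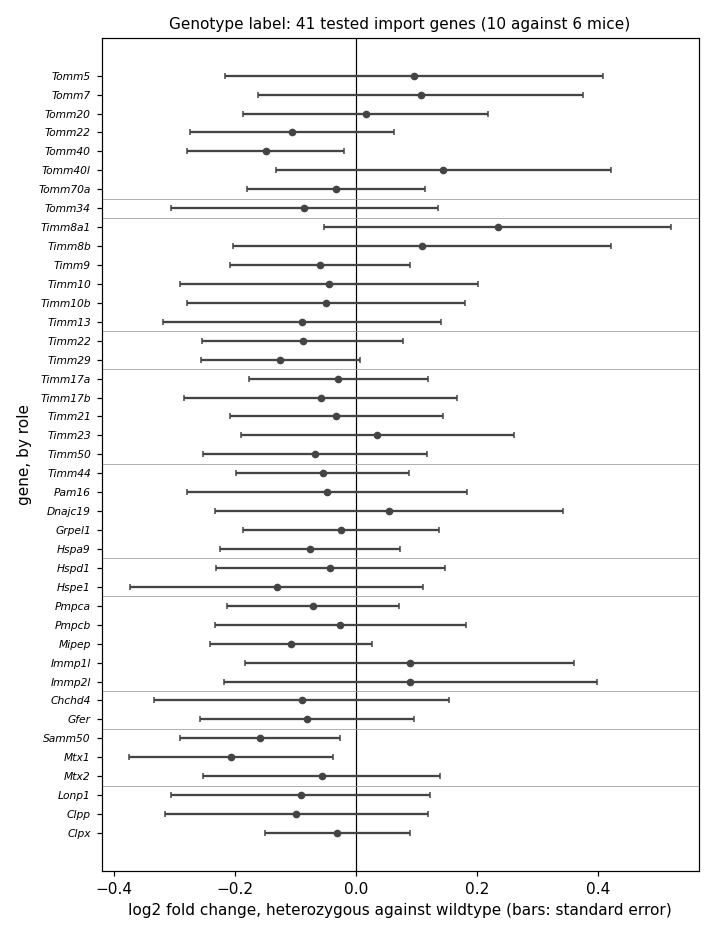
Log2 fold change of each tested import gene between the 10 libraries labelled heterozygous and the 6 labelled wildtype, with cage and body weight in the fit. Points are estimates and bars standard errors, and thin lines part the roles. The estimates lie between -0.21 (*Mtx1*) and 0.23 (*Timm8a1*).

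The negative balance moved with the cage and with single libraries. Within cages, the median difference of the import genes in log2(CPM + 0.1), *Npr1*+/- minus *Npr1*+/+, was -0.23 in cage 675 (2 against 2 mice), -0.50 in cage 677 (1 against 2) and -0.09 in cage 678 (4 against 1), but 0.10 in cage 676 (3 against 1). Of the 41 genes, 33 were lower in cage 675, 14 in cage 676, 35 in cage 677 and 31 in cage 678. The shares of all genes lower were 50.5%, 54.8%, 48.7% and 55.3% in the same order. The fitted median turned to 0.03 without replicate 4 labelled *Npr1*+/+ and to 0.01 without replicate 6 labelled *Npr1*+/-. It was -0.10 without replicate 9 labelled *Npr1*+/-, -0.09 without replicate 5 labelled *Npr1*+/+ and -0.17 with cage as the only covariate.

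The widest differences lay within the *Npr1*+/- label. All 41 import genes had their lowest value in a library labelled *Npr1*+/-, as did 79.9% of all genes tested, and 33 (80.5%) had their highest value there, against 78.2% of all genes. The lowest value fell in replicate 7 for 22 genes, in replicate 6 for 9 and in replicate 9 for 8, where 18.8%, 9.89% and 19.0% of all genes tested had theirs. The highest value fell in replicate 9 for 22 genes (17% of all genes), in replicate 7 for 4 (19.1%) and in replicate 6 for 0 (12.1%). The log2 SD was larger among the libraries labelled *Npr1*+/- for 36 of 41 import genes (87.8%) and for 80.2% of all genes. Its median was 0.41 against 0.18 for import genes, and 0.41 against 0.26 for all genes.

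The summed CPM of the 42 genes was 2893 in replicate 6, 2964 in replicate 7 and 4097 in replicate 9, all labelled *Npr1*+/-, and 3177 to 3953 in the other 13 libraries. Replicates 6 and 7 thus lay below and replicate 9 above every other library. *Timm8b* shows the pattern at its widest. It had 62.5 CPM in replicate 7, 77.3 in replicate 6 and 87.6 in replicate 5, against 312 in replicate 9, while the 6 libraries labelled *Npr1*+/+ had 129 to 205 CPM.

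**Figure D3:**
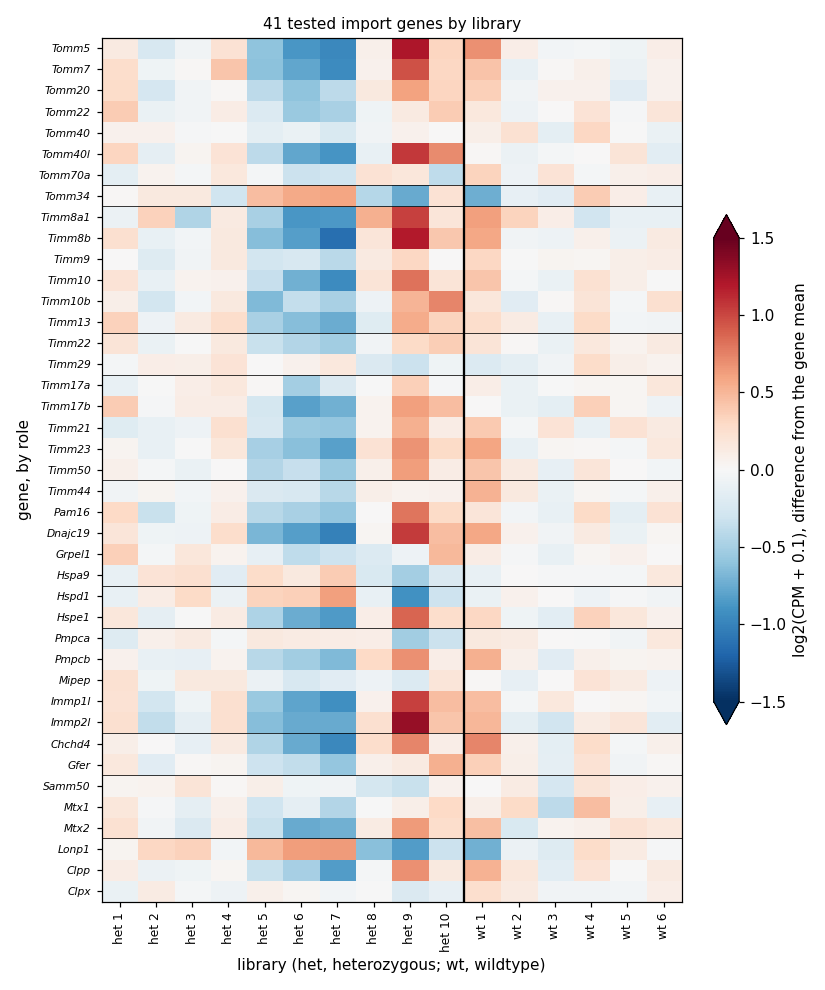
Each square is the log2(CPM + 0.1) of 1 of the 41 tested import genes in 1 library, minus that gene's mean over 16 libraries, from blue (lower) to red (higher). Genes are grouped by role and a vertical line parts the 10 libraries labelled heterozygous (het) from the 6 labelled wildtype (wt). Columns het 6 and het 7 are mostly blue and het 9 mostly red, while *Tomm34*, *Hspd1*, *Hspa9* and *Lonp1* run the other way.

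Not all import genes followed this order. *Lonp1*, the AAA+ protease of the matrix, was highest in replicates 7 and 6 (145 and 144 CPM) and lowest in replicate 9 (52.1 CPM). *Hspa9* had 633 CPM in replicate 7 and 344 in replicate 9. *Tomm34*, a cytosolic cochaperone that hands precursors to the outer membrane, had 13.3 and 5.14 CPM in the same libraries. Of the 41 genes, 32 were higher in replicate 9 than in replicate 7, with a median log2 difference of 1.002, and 9 were lower. Of 12712 genes with a coding length, 5411 were higher, with a median of -0.23.

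These 2 libraries were chosen for comparison after their values were seen. Their difference followed the length of the coding sequence. All 20 import genes with under 600 coding bases were higher in replicate 9 than in replicate 7, with a median log2 difference of 1.54. Of the 10 with at least 600 but under 1200 coding bases, 8 were higher and 2 lower, with a median of 1.15. Of the 11 with 1200 coding bases or more, 4 were higher and 7 lower, with a median of -0.18. The 12712 genes with a coding length showed the same order, with medians of 0.97 for 1591 genes under 600 bases, 0.27 for 3659 genes of at least 600 but under 1200 bases and -0.71 for 7462 genes of 1200 bases or more. Across genes of these 2 libraries, which are not independent replicates, the correlation with log2 coding length was -0.71 (Pearson's r) for the 41 import genes and -0.59 for those 12712 genes. The part that RNA quality or library preparation has in this was not tested.

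**Figure D4:**
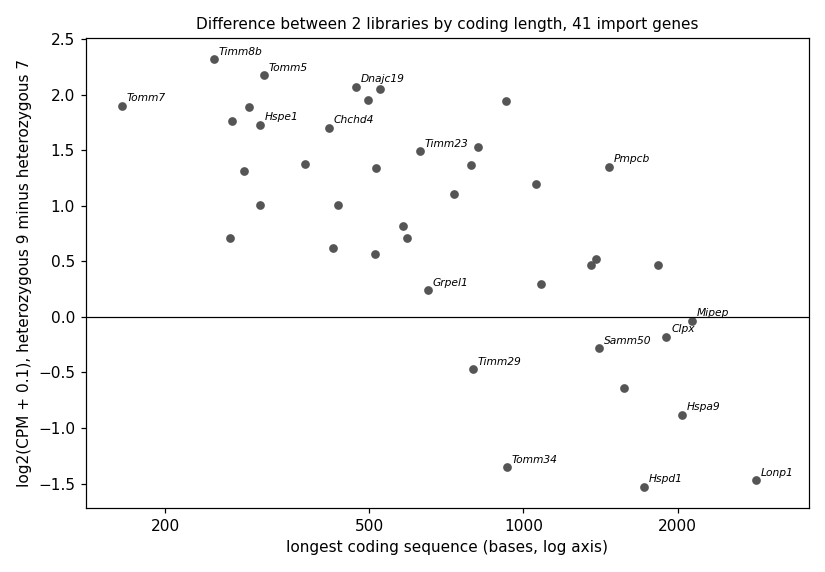
Difference in log2(CPM + 0.1) between replicates 9 and 7 labelled heterozygous, for the 41 tested import genes, against the longest coding sequence of each in bases on a log axis. Each point is 1 gene. Genes with short coding sequences such as *Timm8b* and *Tomm5* lie above 0, and *Hspa9*, *Hspd1* and *Lonp1* below.

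The summed markers of other cell types also differed between these libraries. The summed CPM of 5 endothelial markers, none of them at 0, was 422 in replicate 6, 479 in replicate 7 and 127 in replicate 9, over a range of 127 to 479 for the *Npr1*+/- label and 156 to 211 for the *Npr1*+/+ label. The 5 erythrocyte genes had 281 CPM in replicate 6, 88.0 in replicate 7 and 510 in replicate 9, so that replicates 7 and 9 lay at opposite ends and replicate 6 between them, over ranges of 88.0 to 510 and 192 to 320. The 5 macrophage genes had 59.5, 32.4 and 135 CPM and the 5 fibroblast genes 867, 769 and 1644 CPM in replicates 6, 7 and 9, each highest in replicate 9 within its label. The 3 smooth muscle genes had 215, 215 and 98.4 CPM, and thus ran with the endothelial markers. Ranges for the *Npr1*+/+ label were 59.9 to 108, 847 to 1248 and 108 to 195 CPM. The 4 tendon genes had 306 CPM in replicate 6, the highest of all libraries, 171 in replicate 7 and 110 in replicate 9, against 87.2 to 117 CPM. The 5 adipocyte genes had 156, 39.9 and 81.3 CPM, against 64.5 to 209 CPM. The part of these cells in the import gene values was not tested, nor was that of coding length in the marker sums.

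The chaperonin genes, whose main starts lie 107 bases apart, went opposite ways along this order. *Hspd1* had 191 CPM in replicate 7, 159 in replicate 6 and 66.3 in replicate 9, whereas *Hspe1* had 32.2, 34.7 and 107 CPM in the same libraries. Per length, the ratio of *Hspd1* to *Hspe1* ran from 0.346 in replicate 9 to 3.31 in replicate 7 (median 1.22, n = 10), and from 0.888 to 1.34 in the libraries labelled *Npr1*+/+ (median 1.07, n = 6). *Hspd1* has 1719 coding bases and *Hspe1* 306, so the pair holds one long and one short coding sequence.

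The second comparison is that with body weight, fitted as a log2 slope per 10 g of weight with cage and genotype label in the model. Estimates were positive for 32 of 41 import genes (78.0%), against 47.3% of all genes, and the median slope was 0.29 per 10 g against -0.03. No gene passed: 0 of 41 import genes and 0 of 14331 genes (0%) had an adjusted p-value under 0.05 with edgeR's quasi-likelihood test, and DESeq2 also called 0. At an unadjusted p-value under 0.05 there were 5 import genes (12.2%) and 2449 genes (17.1%), so the share among import genes lay below that of all genes.

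*Timm8a1* had the steepest slope, 1.18 per 10 g (standard error 0.37, unadjusted p = 0.00532, adjusted p = 0.245 from edgeR). Its level was 1.41 CPM in the lightest mouse, of 36.5 g, and 1.86 CPM in the next, of 39.4 g, while the heaviest, of 54.0 g, had 2.84 CPM. The mice at both ends of its range were of middling weight, with 1.41 CPM at 46.2 g (replicate 6) and 5.48 CPM at 43.6 g (replicate 9), both labelled *Npr1*+/-. *Timm21*, which couples the TIM23 channel to the respiratory chain, had 28.5 CPM in the lightest mouse and 49.4 CPM in the heaviest, but 28.9 CPM at 46.2 g and 61.6 CPM at 43.6 g in the same 2 replicates, and ranged over 28.5 to 61.6 CPM (median 40.0) with the *Npr1*+/- label and over 39.6 to 55.9 CPM (median 48.2) with the *Npr1*+/+ label. The *Timm21* slope was 0.51 (standard error 0.22, unadjusted p = 0.0364 from edgeR). On leaving out 1 library it ran from 0.37 to 0.90, the latter without replicate 3 labelled *Npr1*+/-.

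The 3 other genes with an unadjusted p-value under 0.05 had negative slopes. *Lonp1* had 52.1 to 145 CPM (median 106) with the *Npr1*+/- label and 56.3 to 112 CPM (median 89.7) with the *Npr1*+/+ label, and a slope of -0.86 (standard error 0.29). *Tomm34* had 5.14 to 13.3 CPM (median 9.76) against 5.23 to 11.5 CPM (median 8.08) and a slope of -0.81 (standard error 0.30).

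*Hspd1* had 66.3 to 191 CPM (median 125) against 116 to 130 CPM (median 121), and a slope of -0.52 (standard error 0.24), which ran from -0.70 without replicate 3 to -0.30 without replicate 7, both labelled *Npr1*+/-. Its lid *Hspe1* had a positive estimate of 0.31 (standard error 0.31). The lightest mouse, the source of replicate 7 labelled *Npr1*+/-, had the highest *Lonp1*, *Tomm34* and *Hspd1*. Without that mouse, the median slope of the import genes was 0.09, and without replicate 3 labelled *Npr1*+/- it was 0.61.

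By role, positive estimates were found for all 6 small TIM genes (median slope 0.37), all 5 TIM23 channel genes (0.38), 6 of 7 TOM genes (0.37) and both genes of the disulfide relay (0.39), and for 4 of 5 motor genes (0.28). The other roles were mixed, with 3 of 5 peptidase genes positive (0.46), 2 of 3 SAM genes (0.03), 2 of 3 matrix protease genes (0.02), 1 of 2 TIM22 genes (-0.02) and 1 of 2 chaperonin genes (-0.10), and *Tomm34* negative (-0.81). The slopes followed coding length as the difference between single libraries did. All 20 import genes under 600 coding bases had positive slopes, and the correlation across genes with log2 coding length was -0.63 for the import genes and -0.50 for 12712 genes. All 5 endothelial markers had negative slopes and all 5 erythrocyte genes positive ones, with 2 of each list at an unadjusted p-value under 0.05. Of the 8 fast fibre genes 6 had negative slopes, the steepest being those of the fast myosins *Myh1* (-2.28) and *Myh4* (-2.08), both with an unadjusted p-value under 0.05 from edgeR. All 5 macrophage genes had positive slopes, with *Adgre1* and *Lyz2* under that value. *Atp2a2* (-1.16) of the slow fibre list, with 5 of 7 slopes negative, was under it too. So was *Myh6* (-2.34), the 1 cardiac gene tested, at 0.12 to 7.10 CPM with the *Npr1*+/- label. *Dcn* (0.75) of the fibroblast list, with 3 of 5 slopes positive, and *Tnmd* (0.86) of the tendon list, with 2 of 4 positive, were also under it. The part of fibre type and of these cells in the import gene slopes was not tested, nor was that of coding length in the marker slopes.

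Whether slopes were called depended on a single mouse and on the covariates. With all mice but without the genotype label in the fit, 333 genes and 0 import genes were called. Without replicate 3 labelled *Npr1*+/-, which weighed 40.1 g in a cage whose other mice weighed 46.2 to 54.0 g, 3158 of 14284 genes (22.1%) and 15 of 41 import genes (36.6%) had an adjusted p-value under 0.05 from edgeR. Positive slopes were called for 13 import genes, against 8.44% of all genes, and negative slopes for 2, against 13.7%. Leaving out any other mouse from the fit with all 3 terms gave 0 genes.

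The 13 were spread over the pathway: *Tomm5* and *Tomm7* of the TOM complex, *Timm8a1*, *Timm8b* and *Timm10* of the small TIM chaperones, *Timm23* and *Timm21* of the channel, *Dnajc19* of the motor, *Pmpcb*, *Immp1l* and *Immp2l* of the peptidases, *Chchd4* of the disulfide relay and *Mtx2* of the SAM complex. The 2 with negative slopes were *Tomm34* and *Lonp1*. *Timm23* had the smallest adjusted p-value of them, and its slope was 0.57 per 10 g with all mice and 1.14 without replicate 3 (adjusted p = 0.00989 from edgeR). With a correction for coding length, which was added after the data were seen, the median slope of the import genes was 0.10 with all mice. Without replicate 3 the corrected counts were 2018 of 14284 genes and 9 of 41 import genes, with *Tomm34* the 1 negative.

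**Figure D5:**
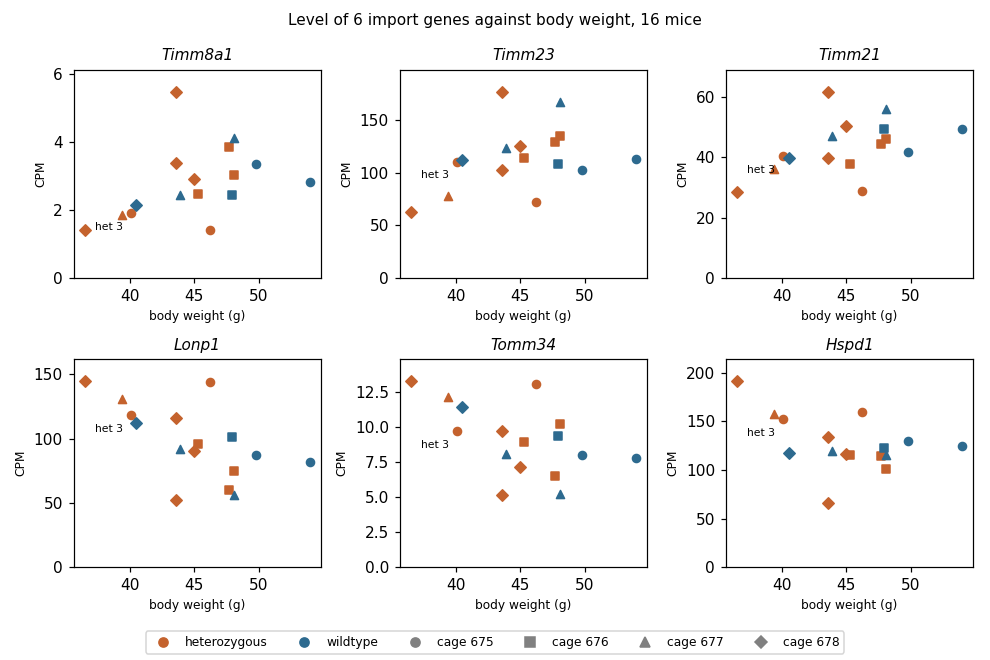
CPM of 6 import genes against body weight in g, 1 point per mouse, with colour for the genotype label and shape for the cage. The mouse whose removal changed the calls is marked het 3, at 40.1 g. *Lonp1*, *Tomm34* and *Hspd1* have their highest value in the lightest mouse, and *Timm21* and *Timm23* their lowest.

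The third comparison is between the 4 cages, with body weight and genotype label in the fit. With edgeR's quasi-likelihood test, 0 of 41 import genes and 4 genes (0.0279%) had an adjusted p-value under 0.05, and at an unadjusted p-value under 0.05 the counts were 0 import genes and 1055 genes (7.36%). DESeq2 called 78 genes and 0 import genes. *Mtx2* had the smallest unadjusted p-value among the import genes (p = 0.0695 from edgeR). Without replicate 3 labelled *Npr1*+/-, 869 of 14284 genes (6.08%) were called, and among import genes *Mtx2* alone, with an adjusted p-value of 0.0442 from edgeR.

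Genes that work beside or downstream of import gave the following counts, against 51.6% of all genes tested with negative genotype estimates (median -0.01). Of 13 other import and folding genes, 10 had negative genotype estimates (median -0.04), and of 12 inner membrane proteases and scaffolds 9 did (median -0.07). Among proteins that the disulfide relay folds, 11 of 15 twin CX9C genes were negative (median -0.07), and all 6 genes of carriers inserted by TIM22 were (median -0.08). Of 8 MICOS genes, which shape the cristae, 5 were negative (median -0.03), and of 4 factors of the mitochondrial stress response 3 were (median -0.04). With edgeR, 0 genes of these 6 lists had an unadjusted p-value under 0.05 for the genotype label, and DESeq2 called none of them after adjustment. Whether their signs hold with other covariates or without single libraries is not given here.

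For body weight, 1 twin CX9C gene (*Coa6*, an assembly factor of cytochrome c oxidase) and 1 carrier gene (*Slc25a12*, the aspartate-glutamate carrier of muscle) had an unadjusted p-value under 0.05, with slopes of 0.88 and -0.47, against 17.1% of all genes, and no gene of the 6 lists passed after adjustment. Some of these lists shared the library order of the import genes in their sums. The 6 carrier genes summed to 7182 CPM in replicate 7, 7298 in replicate 6 and 14417 in replicate 9, all labelled *Npr1*+/-, against 9230 to 13352 CPM in those labelled *Npr1*+/+, with *Slc25a4*, the ADP/ATP carrier of muscle, the bulk of the sum (5106 to 12532 CPM with the *Npr1*+/- label). The 8 MICOS genes summed to 1095, 1138 and 2272 CPM in the same 3 libraries, against 1506 to 2054 CPM. The 12 inner membrane proteases and scaffolds did not share it, with 817, 855 and 873 CPM and their highest sum, 980 CPM, in replicate 3.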

How the data were processed

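Bulk RNA-seq libraries of skeletal muscle from 16 HFD-fed mice were analysed, 10 labelled *Npr1*+/- and 6 labelled *Npr1*+/+. The authors aligned reads of 52 bases from both ends to GRCm38 with STAR, counted fragments per GENCODE M24 gene with featureCounts where both ends had aligned, and deposited raw counts with a gene length. The submitters' processing notes give STAR 2.7.2b and featureCounts 1.6.4, and the methods of the study another featureCounts version. Those methods name a stranded kit and the labels another one, so the use of strand in counting is not settled here. Of 55471 identifiers, 55144 carry a symbol in the GENCODE M21 annotation, from which coding lengths were also taken.

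Low counts were removed by filterByExpr within genotype labels, TMM factors gave the scaling, and tests used edgeR 4.0.16 (R 4.3.3; glmQLFit with robust = TRUE, and glmQLFTest) on genotype label, body weight and cage in a single fit with 10 residual degrees of freedom, as the study's covariates imply. P-values of the genotype label and of body weight are two-sided, and those of cage come from an F test of its coefficients together. They were Benjamini-Hochberg adjusted over all genes tested, 14331 in the main fit and 14284 without replicate 3 labelled *Npr1*+/-. The threshold was 0.05. DESeq2 1.42.0, other size factors, filters and covariates, the replicate number as a block, and leaving out each library were alternatives. Per-length levels are CPM divided by the deposited gene length in kilobases, and log2 descriptions add 0.1 CPM. The steps were tested on simulated counts with the same dispersion for every gene and in both labels. The libraries here spread more within the *Npr1*+/- label, so that test does not bear on the calls made here.

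The 42 genes and all lists were chosen with earlier results of these data known. Every import gene could be named, and full values were given for the 5 with the smallest p-values for genotype and for body weight and for the most abundant of each role per length. Genes of other lists were named below an unadjusted p-value of 0.05, up to 3 a list, apart from *Npr1* as the check of the labels and from *Myl7* and *Slc25a4*, which were named after their values were seen. Totals of 15273472 to 59682677 counts per library gave *Timm8a1*, the lowest tested import gene, at least 30 counts in each. Protein sequences were not used here.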

Additional observations from a re-analysis of the deposited data

Results flagged for a closer look

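In the 6 libraries labelled *Npr1*+/+, replicate 1 stood apart from the others for *Timm8b*, with 205 CPM against 151 CPM in the next highest, and for *Tomm7*, with 96.3 CPM against 75.4 CPM. The gap to the next library was 0.665 and 0.648 of the whole range on the log2(CPM + 0.1) scale. The 16 import genes given with full values were looked at in both labels, which makes 32 groups of samples, and chance marks about 1 in 20 of them, or 1.6 here. Both genes have short coding sequences of 249 and 165 bases.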

How the results depend on the processing

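No import gene was called for the genotype label or, with all mice, for body weight under any setting run, but the directions of small estimates changed often. Genes called for the genotype label numbered 2 with the replicate block in place of cage, 8 without a filter on low counts and 6 with DESeq2. With the replicate block, 0 import genes were called and the median log2 fold change of the import genes was -0.22. Same-numbered replicates are different animals, and their deviations correlated by 0.0331 to 0.172 over 6 pairs. Genes called for body weight numbered 333 without the genotype label and 2018 with the coding length correction and without heterozygous replicate 3, where 9 import genes were called. Genes called for cage numbered 23 without a filter, 1 with at least 10 counts in every library, 78 with DESeq2 and 10 with the coding length correction.

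Leaving out each library in turn gave 0 to 3 genes for the genotype label, 0 to 3158 genes and 0 to 15 import genes for body weight, and 0 to 869 genes and 0 to 1 import gene for cage, with the highest values for weight and cage without heterozygous replicate 3.

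Single-gene estimates were recomputed for 16 of the import genes, and the other import genes are not given here. Among these, fold changes of the genotype label reversed as follows. With the label alone they were -0.0060 for *Tomm7*, 0.21 for *Tomm34*, -0.075 for *Timm8a1*, -0.035 for *Timm8b*, -0.13 for *Timm23*, 0.024 for *Hspa9*, 0.10 for *Hspd1*, -0.057 for *Immp1l* and 0.22 for *Lonp1*. With cage alone the same 9 were -0.15, 0.21, -0.26, -0.18, -0.19, 0.082, 0.17, -0.21 and 0.22. With body weight alone *Tomm34* was 0.046 and *Timm23* -0.022. With the replicate block they were -0.20 for *Tomm7*, 0.20 for *Tomm34*, -0.25 for *Timm8a1*, -0.37 for *Timm8b*, 0.039 for *Timm29*, -0.32 for *Timm23*, 0.15 for *Hspd1*, -0.27 for *Immp1l* and 0.31 for *Lonp1*. Leaving out 1 library gave -0.030 to 0.23 for *Tomm7*, -0.19 to 0.036 for *Tomm34*, -0.11 to 0.23 for *Timm8b*, -0.10 to 0.051 for *Timm21*, -0.068 to 0.14 for *Timm23*, -0.15 to 0.074 for *Hspd1*, -0.093 to 0.21 for *Immp1l*, -0.24 to 0.14 for *Gfer*, -0.31 to 0.025 for *Mtx1*, -0.20 to 0.072 for *Lonp1* and -0.21 to 0.024 for *Clpp*. The *Tomm40* slope, near 0 in the main fit, was 0.091 without the genotype label, 0.046 with RLE size factors, 0.023 without a filter, 0.0076 with the stricter filter and 0.047 with DESeq2, and ran from -0.11 to 0.16 on leaving out 1 library, while that of *Mtx1* ran from -0.15 to 0.31. The cause of these changes was not tested.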
